A study of Mus musculus with 4 samples.

Results

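Msi1 and Msi2, the Musashi genes of the mouse, were followed as transcripts across the 4 arrays of a crosslinking and immunoprecipitation experiment on gut epithelium. Every probe set whose gene symbol was Msi1 or Msi2 was taken. This gave 2 genes of 19937 and 2 probe sets of the 21640 that carried 1 gene symbol, so each gene rested on a single probe set. The material was the intestinal epithelium of C57BL/6 mice, all adult, and ultraviolet light had bound RNA to protein before precipitation. The 4 groups were RNA precipitated with an Msi1 antibody, RNA precipitated with an hnRNP antibody, RNA precipitated with nonspecific IgG as the control, and input RNA with no antibody. The labels give no genetic change or treatment for any group. Each group had 1 array, which carried RNA combined from 2 experiments, and 100 ng of RNA was labelled for each. A value is therefore a level within equal amounts of labelled RNA and not a yield of the precipitation. With 1 array per group there was no measure of spread, so differences were described by size, no test was made, and neighbouring levels could not be told apart or shown to be alike. The sources used here do not say which member of the hnRNP class the antibody recognised.

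Musashi proteins bind single-stranded RNA through a pair of RNA recognition motifs (RRMs) and favour short sites with the core UAG, mostly in 3′ untranslated regions. Msi1 is known as a translational repressor of Numb, an inhibitor of Notch signalling, and as a marker of progenitor cells in the nervous system and in the crypts of the gut. Msi2 is a close relative with a similar binding preference, best known in blood stem cells and also active in the gut epithelium. The precipitation used an antibody to the Msi1 protein to draw down RNAs bound to it, and how specifically it did so was not tested. The arrays report Musashi transcripts and not Musashi protein.

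Signals were log2 values between 1.07 and 14.3, with the base inferred from their range. A detection floor was set on each array from 1208 probe sets of odour and pheromone receptors (symbols Olfr and Vmn), genes of sensory neurons, at the value that 95% of them did not exceed. It was 4.74 on the Msi1 antibody array, 5.17 on hnRNP, 5.26 on IgG and 4.09 on input, and 28.1% to 59.1% of genes exceeded it. The arrays had unequal distributions, with standard deviations of 1.17 on IgG and 2.01 on input. On input, all 9 general epithelial markers and all 8 enterocyte markers were above the floor. Of 14 intestinal stem cell markers 13 were above it, up to 10.37 for Olfm4, and the telomerase gene Tert at 3.86 was not. Of 8 enteric neuron markers 1 exceeded the floor (Snap25 at 4.35), as did 1 of 5 enteric glia markers (Sox10 at 4.43), 3 of 8 stromal and muscle markers and 4 of 6 immune markers.

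The Msi1 transcript lay far above background on input and much lower on the 3 precipitated arrays. The Msi1 probe set (10524684, chromosome 5) read 8.09 on the Msi1 antibody array, 6.07 on hnRNP, 8.14 on IgG and 12.16 on input. Input was thus the highest array, the Msi1 antibody and IgG arrays were nearly level with each other, and hnRNP was the lowest. These values stood above the floor of their array by 3.35 log2 units with the Msi1 antibody, by 0.91 with hnRNP, by 2.87 with IgG and by 8.07 on input. The transcript was detected on every array, so no fold given for it is a lower bound. Within each array, the Msi1 value was above 97.8% of all 34760 probe sets with the Msi1 antibody, above 90.2% with hnRNP, above 98.8% with IgG and above 99.8% on input. On input 8 genes read higher than Msi1, and on IgG 47 did. Msi1 is known as a gene of few cells in the crypts, and this input value is out of line with its known expression. The 14 intestinal stem cell markers found, on other probe sets, read 3.86 to 10.37 on input. Their median was 6.32, with Lgr5 at 6.71 and Olfm4 the highest. Whether the Msi1 probe set reads only Msi1 RNA was not tested, and every difference from input given for Msi1 depends on this value. A signal also depends on the probes, so these places describe the arrays and are not a ranking of RNA amounts. In tissue RNA, a larger share of cells with Msi1 RNA and more of it per cell cannot be told apart.

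As deposited, the Msi2 signal varied little over the 4 arrays, though its place relative to input turned on the scaling, from 1.59 with loess centring to −0.22 with receptor centring for the Msi1 antibody. The Msi2 probe set (10389680, chromosome 11) read 6.57 on the Msi1 antibody array, 6.20 on hnRNP, 5.93 on IgG and 6.17 on input. The Msi1 antibody array was the highest and IgG the lowest, and the hnRNP and input arrays differed by 0.031. Msi2 stood above the floor by 1.83, 1.03 and 0.66 log2 units on the Msi1 antibody, hnRNP and IgG arrays and by 2.08 on input, so it was detected on all of them, with the smallest margin on IgG. The highest and lowest arrays differed by 0.64 for Msi2 and by 6.08 for Msi1. Over the 13594 genes that passed the floor on any array the median of this range was 1.62, and 9.88% of them had a smaller range than Msi2, while 99.6% had a smaller range than Msi1.

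**Figure D1:**
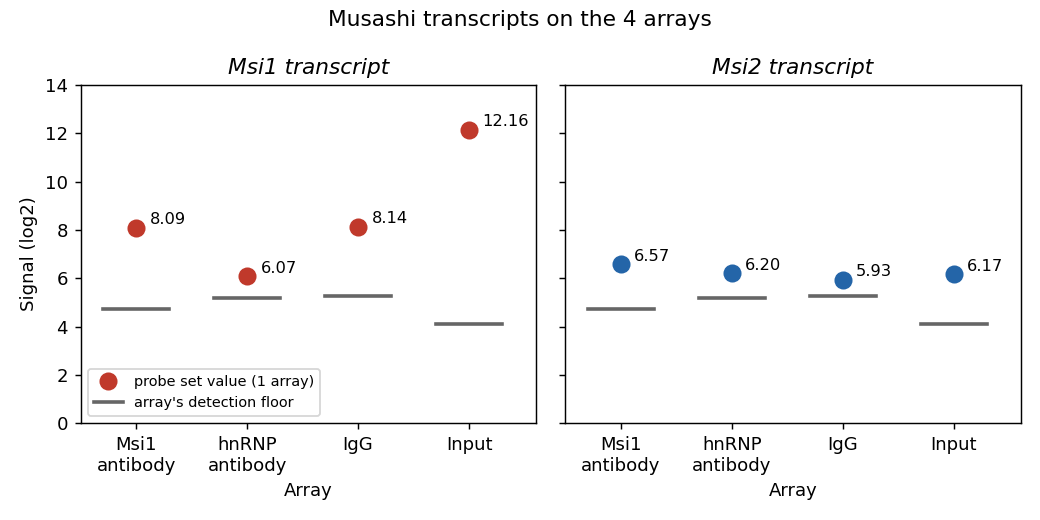
Signal (log2) of the Msi1 probe set (left) and the Msi2 probe set (right) on the Msi1 antibody, hnRNP antibody, IgG and input arrays. Each point is 1 array and each bar the detection floor of that array; Msi1 spans 6.07 to 12.16, and Msi2 stays between 5.93 and 6.57.

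The comparison of the Msi1 antibody with IgG asked which transcripts were enriched over the control precipitation, and neither Musashi transcript reached a 2-fold difference. The Msi1 transcript differed by −0.047 (8.09 with the Msi1 antibody and 8.14 with IgG). Its sign was turned by median centring (0.087) and by centring on the receptor probe sets (0.30), and it was −0.78 with quantile normalization. Among 10368 genes that exceeded the floor on either array, 18.6% were higher by 2-fold or more with the Msi1 antibody and 6.91% were lower by as much. In that distribution Msi1 lay near the middle, above 44.4% of genes, and 0.11 below the median of all genes (0.065). Both Musashi transcripts were detected on both arrays, and over the 4763 genes of which this was true the median was −0.27, with 7.87% at least 2-fold higher and 5.33% lower. The Msi2 transcript differed by 0.64, a factor of 1.56 (6.57 with the Msi1 antibody and 5.93 with IgG), and lay above 73.0% of genes. Its difference was between 0.38 and 0.99 under 4 scalings (quantile normalization, and median, loess and receptor centring), always above 0 and below 2-fold. Raising values to the floor could not change either gene, because both were above it on every array. The members thus differed from IgG by unequal amounts, with Msi2 0.69 log2 units further up than Msi1.

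The hnRNP antibody array was the one on which the Msi1 transcript was lowest, also against IgG. Its value was 2.07 log2 units below IgG (6.07 with hnRNP and 8.14 with IgG), a factor of 4.19. Of 7917 genes compared, 4.51% were lower by 2-fold or more with hnRNP and 6.26% higher, and 14 genes had a larger deficit than Msi1. The difference was between −2.35 and −2.001 under the 4 scalings. Msi2 differed by 0.27 between hnRNP and IgG (6.20 and 5.93) and lay above 63.1% of genes. With the Msi1 antibody the Msi1 transcript was 2.02 higher than with hnRNP, a factor of 4.05 (8.09 and 6.07), where 17.5% of 10673 genes were higher by 2-fold or more and 7.79% lower. A total of 702 genes had a larger excess. The Msi1 excess over hnRNP ranged from 1.57 to 2.30 under the 4 scalings. It was not matched by an excess over IgG, and the hnRNP value is shared by both of these differences. Msi2 differed by 0.37 between the Msi1 antibody and hnRNP (6.57 and 6.20).

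**Figure D2:**
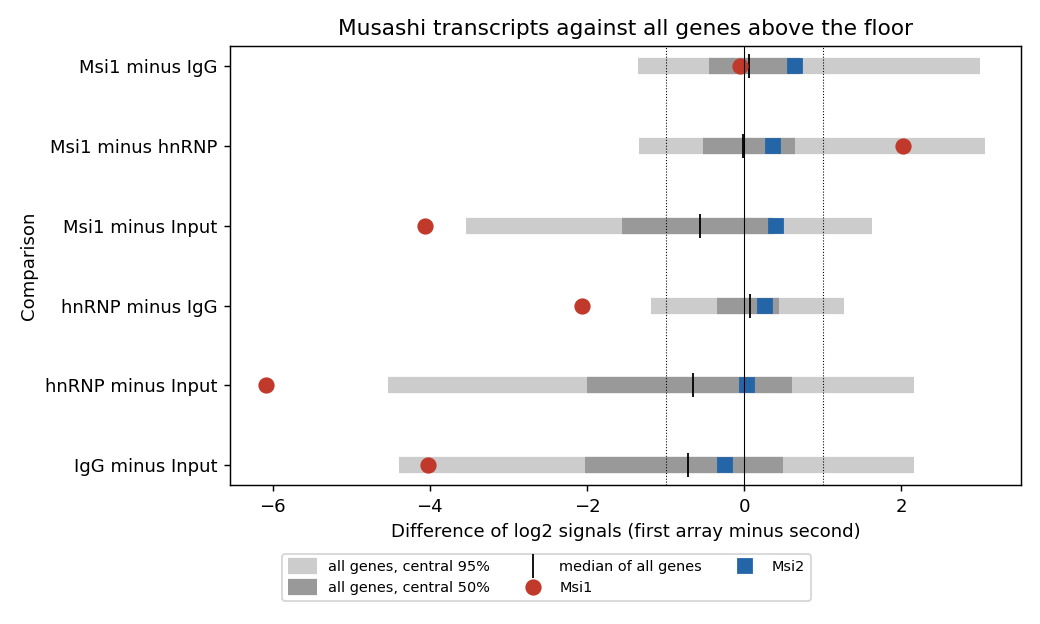
Difference of log2 signals (first array minus second) for Msi1 (circles) and Msi2 (squares) in 6 comparisons, with the central 95% and 50% of all genes above the floor as light and dark bars, their median as a tick, and dotted lines at 2-fold. Msi2 lies within the central 50% or just past its edge in all of them, while Msi1 lies outside the central 95% in Msi1 minus Input (−4.06), hnRNP minus IgG (−2.07) and hnRNP minus Input (−6.08).

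As deposited, the members were furthest apart in the comparisons with input. The Msi1 transcript was 4.06 log2 units lower on the Msi1 antibody array than on input (8.09 and 12.16), 6.08 lower on hnRNP (6.07 and 12.16) and 4.02 lower on IgG (8.14 and 12.16). These are factors of 16.7, 67.8 and 16.2, but with loess centring the IgG difference was 0.20, so that its deficit and its direction were lost. At least 2-fold lower than input were 38.3% of 12782 genes with the Msi1 antibody, 43.3% of 12879 with hnRNP and 44.7% of 12693 with IgG, so a value below input was common. A larger deficit than that of Msi1 was seen in 134 genes with the Msi1 antibody, 41 with hnRNP and 522 with IgG. Higher than input by 2-fold or more were 11.8%, 18.7% and 16.6% of genes on the Msi1 antibody, hnRNP and IgG arrays. Msi2 differed from input by 0.40 with the Msi1 antibody (6.57 and 6.17), by 0.031 with hnRNP (6.20 and 6.17) and by −0.24 with IgG (5.93 and 6.17). It lay above 75.6%, 64.1% and 60.5% of genes in these comparisons.

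The precipitated arrays lay further below input the higher the input signal was. Part of this slope is built in, because the input value enters the difference and the input array had the widest spread. The slope was therefore not read as a property of the precipitations. The Musashi transcripts were also set beside genes of a like input level, a choice made after the data were seen. Within 0.5 log2 units of Msi1 on input lay 20 other genes, and all of them (100% in each case) were at least 2-fold below input with the Msi1 antibody, with hnRNP and with IgG. With the Msi1 antibody Msi1 was at −4.06 from input, against a median of −3.72 for these genes, 7 of which were further below input. With hnRNP it was at −6.08, against a median of −5.82, and 9 of the 20 were further below. With IgG it was at −4.02, against a median of −5.20, and 18 of the 20 were further below. At its input level the Msi1 transcript was thus in the middle of these genes on both antibody arrays and above most of them on the control array. Between the Msi1 antibody and IgG the Msi1 transcript was at −0.047, against a median of 1.22 for the same genes, of which 13 were at least 2-fold higher with the Msi1 antibody and 2 had a lower difference than Msi1. Between hnRNP and IgG it was at −2.07, against a median of −0.62, and 2 of the 20 were further down.

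Msi2 was compared in the same way with 2690 genes within 0.5 log2 units of its input level. Of these, 49.3% were at least 2-fold below input with the Msi1 antibody, 55.3% with hnRNP and 57.5% with IgG. Msi2 was at 0.40, 0.031 and −0.24 from input on the Msi1 antibody, hnRNP and IgG arrays, against medians of −0.98, −1.11 and −1.15 for these genes. It was above 2505, 2417 and 2306 of the 2690. All 3 precipitated arrays thus carried more Msi2 signal than was typical at this input level, the control included. These genes were taken by input level alone, whether or not they passed the floor on the precipitated arrays. Msi2 passed it on all 3, and how far its place restates this was not tested. Between the Msi1 antibody and IgG it was at 0.64, against a median of 0.072, and 632 of these genes had a larger difference.

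**Figure D3:**
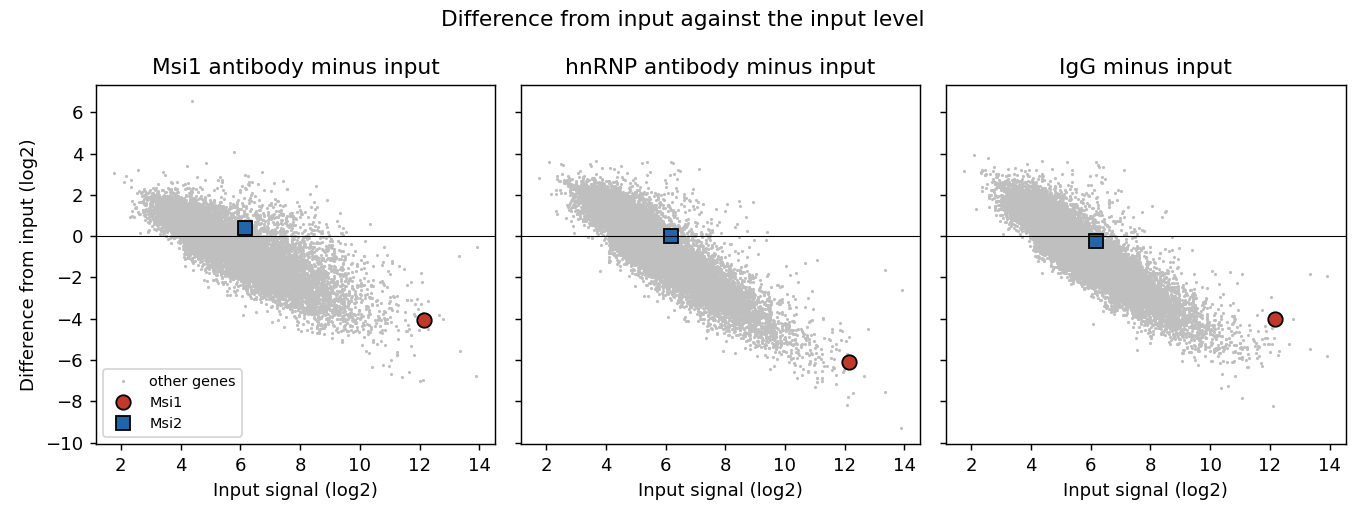
Difference from input (log2) against the input signal (log2) for genes detected on any array, with the Msi1 antibody, hnRNP antibody and IgG arrays from left to right. The cloud of other genes slopes downward on each array, in part because the input value enters both axes. Msi1 (circle) lies at −4.06, −6.08 and −4.02, in the middle of genes of its input level on the antibody arrays and above most of them on IgG. Msi2 (square) lies in the upper part of the cloud on all 3.

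Differences from input depended on how the arrays were scaled, because their distributions were unequal. The median of all genes for the Msi1 antibody minus input was −0.57 as deposited and ranged from −1.18 with centring on receptor probe sets to −0.11 with quantile normalization. The Msi1 transcript remained more than 2-fold below input on the Msi1 antibody array (−4.68 to −2.50) and on the hnRNP array (−6.98 to −2.27) under all 4 scalings. With IgG it was between −4.98 and −2.19 with median centring, receptor centring and quantile normalization. It was at 0.20 with loess centring, which removes the trend with signal level. Msi2 went either way. Its difference between the Msi1 antibody and input was 1.13 with quantile normalization and 1.59 with loess centring, which are past 2-fold, but −0.22 with centring on receptor probe sets. Between hnRNP and input, Msi2 was at 1.06 and 1.60 with quantile normalization and loess centring, and at −0.35 and −0.87 with centring on the median and on receptor probe sets. Between IgG and input it was at 0.75 and 1.20 with quantile normalization and loess centring, and at −1.20 with centring on receptor probe sets. The loess and receptor values are past 2-fold in opposite directions.

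The genes next to the Musashi genes on the chromosome were read for comparison. Of the 2 genes on each side in the RefSeq order, 3 had a probe set with 1 symbol. Cox6a1, a subunit gene of cytochrome c oxidase near Msi1, read 5.75 on the Msi1 antibody array, 5.29 on hnRNP, 4.95 on IgG and 8.60 on input, so it was also highest on input, but its IgG value lay below the floor. Pla2g1b, a secreted phospholipase gene on the other side of Msi1, read 4.88, 5.10 and 5.70 on the Msi1 antibody, hnRNP and IgG arrays and 4.62 on input, with the hnRNP value below the floor. Ccdc182, next to Msi2, read 5.20, 5.27 and 4.97 on those arrays and 3.85 on input, and was below the floor on IgG and input. The genes 4930401G09Rik and A930005G22Rik, which overlap Msi1, and Mir378b and Gm11510, within Msi2, had no such probe set.

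To describe which genes followed a like course, each gene's own mean was subtracted from its 4 values and the distance to the Musashi gene was taken over the 4 arrays. For Msi1, 28 of 12718 genes lay within a distance of 1 log2 unit. The nearest 6 were Crip1, Prdx1, Sri, Cpt1a, Papss2 and Ano6, at distances of 0.36 to 0.66. Crip1, a small LIM-domain protein gene expressed in the intestine, read 7.03 on the Msi1 antibody array, 5.04 on hnRNP, 6.69 on IgG and 10.79 on input. Prdx1, a peroxiredoxin gene, read 6.00, 4.07 and 5.87 on the Msi1 antibody, hnRNP and IgG arrays and 9.47 on input. Both were highest on input, nearly level on the Msi1 antibody and IgG arrays, and lowest on hnRNP, as were Sri, which encodes the calcium-binding protein sorcin, and Cpt1a, the gene of the carnitine palmitoyltransferase that admits fatty acids to mitochondria. The hnRNP values of all 6 genes lay below the floor, whereas that of Msi1 was above it. With quantile normalization 4 of these genes were again among the nearest 6.

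For Msi2, 3373 of the 12718 genes lay within 1 log2 unit, which reflects the small range of its values. The nearest 6 were Zfp790, Neurod1, Lamtor5, Tacc3, Il27 and Pdgfc, at distances of 0.09 to 0.13. Zfp790, a zinc finger gene, read 4.93 on the Msi1 antibody array, 4.47 on hnRNP, 4.27 on IgG and 4.56 on input. Each of the 6 genes was below the floor on at least 1 array, and none of them was among the nearest 6 with quantile normalization (0 of 6). The likeness to Msi2 therefore rested on the deposited scale.

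**Figure D4:**
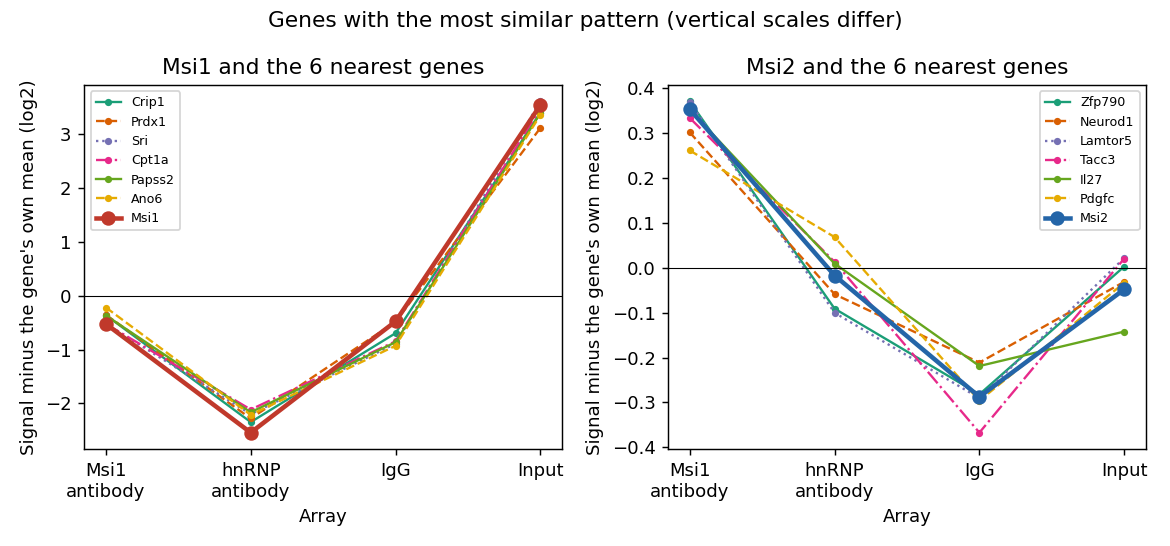
Signal minus the gene's own mean (log2) on the 4 arrays for Msi1 (left) and Msi2 (right), each with the 6 genes at the smallest distance; the vertical scales differ. The genes nearest to Msi1 share its high input value and its low hnRNP value, and the genes nearest to Msi2 all stay within 0.4 log2 units of their own mean.

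Some of the closest relatives of the Musashi genes, which encode RNA-binding proteins with like RRMs, were far above IgG with the Msi1 antibody and others were level with it. Of 9 relatives sought, 7 were found and detected. With the Msi1 antibody 4 of the 7 exceeded IgG by 2-fold or more and 0 were lower by as much, beside 18.6% and 6.91% of all genes. Their median difference was 1.27, against 0.065 for all genes, with single values between −0.16 and 4.57. Hnrnpa2b1, which encodes a nuclear protein of splicing and RNA transport, read 8.80 with the Msi1 antibody, 5.46 with hnRNP, 4.23 with IgG and 9.06 on input. It was at least 11.6-fold above IgG, where its value lay below the floor. Hnrnpab, another hnRNP gene, read 8.74 with the Msi1 antibody, 6.08 with hnRNP, 6.04 with IgG and 9.45 on input. Dazap1, a relative known for its association with the germ cell protein Dazl, read 6.55, 6.90 and 6.72 on the Msi1 antibody, hnRNP and IgG arrays and 6.56 on input, and Hnrnpa0 read 6.14, 6.08, 5.71 and 5.91 in the same order. These last 2 genes varied little over the arrays as deposited. Hnrnpd, Hnrnpa2b1 and Tardbp were above the floor with the Msi1 antibody but not with IgG. Among the 4 relatives detected on both, 2 were at least 2-fold higher and the median was 0.85, beside 7.87% and −0.27 for all such genes.

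Of 11 genes listed as possible partners of Musashi in translation and RNA processing, 9 were found. Whether each of their proteins acts with Musashi was not tested. Among the 7 that were detected, 3 exceeded IgG by 2-fold or more with the Msi1 antibody and 0 were lower by as much, beside 18.6% and 6.91% of all genes, with a median of 0.73. Of the 4 detected on both arrays 2 were higher, beside 7.87% of all such genes. Eif4g2, a relative of the scaffold eIF4G that joins the cap to the ribosome, read 8.36 with the Msi1 antibody, 4.23 with hnRNP, 5.09 with IgG and 9.71 on input and was at least 8.55-fold above IgG. Tent2, a cytoplasmic poly(A) polymerase gene, differed by 1.51 on the probe set used and by 3.68 on its second. Pabpc1 encodes the poly(A)-binding protein, for which Msi1 is known to compete with eIF4G. Its transcript read 8.61 with the Msi1 antibody, 7.77 with hnRNP, 7.55 with IgG and 10.76 on input, a difference of 1.06 from IgG. It was not among the genes picked by the naming rule and was added for this known role after its value was seen. At the lower end were Eif4e, the cap-binding protein, at −0.69, and Eif4g3, another member of the eIF4G family, at 0.059. The 3 probe sets of Eif4e disagreed, with differences of −0.69, 0.68 and 2.95.

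Other regulators that bind 3′ untranslated regions were found for 29 of 31 sought. Among 23 that were detected, 10 exceeded IgG by 2-fold or more with the Msi1 antibody and 0 were lower by as much, beside 18.6% and 6.91% of all genes, with a median of 0.79. Of the 11 detected on both arrays 3 were higher, beside 7.87% of all such genes. Values raised to the floor gave 8 higher and a median of 0.73, for which no share or median of all genes is given here. Syncrip, a cytoplasmic hnRNP-like protein gene, read 8.43 with the Msi1 antibody, 5.25 with hnRNP, 4.88 with IgG and 7.39 on input and was at least 8.97-fold above IgG. Pum2, a Pumilio repressor gene, read 7.16, 3.45, 4.32 and 7.22 in the same order, at least 3.71-fold above IgG. Rbms1 (−0.97) and Fxr2 (−0.67) had the lowest differences, and both were below the floor with the Msi1 antibody.

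Published Musashi targets were found for 23 of 25 sought, and 19 were detected. Of these, 7 exceeded IgG by 2-fold or more with the Msi1 antibody and 0 were lower by as much, beside 18.6% and 6.91% of all genes, with a median of 0.52. Values raised to the floor gave 6 higher and a median of 0.12, for which no share or median of all genes is given here. Of the 9 members detected on both arrays 2 were higher, beside 7.87% of all such genes, with a median of −0.36. Cdkn1b, the p27 cell cycle inhibitor, read 10.90 with the Msi1 antibody, 5.44 with hnRNP, 5.38 with IgG and 4.37 on input on the probe set used. That probe set was taken for its highest mean over the arrays, a mean that includes the 10.90. The second probe set read 6.24 with the Msi1 antibody, 4.76 with hnRNP, 5.65 with IgG and 6.89 on input. Its difference from IgG was 0.59, under 2-fold, and its Msi1 antibody value lay below input. The counts of higher targets rest on the first probe set for Cdkn1b. Tgfbr1, a TGF-beta receptor gene, read 6.36 with the Msi1 antibody and 3.44 with IgG, at least 2.14-fold higher. The lowest members were Robo3, an axon guidance receptor gene, at −0.96, and Ikzf2, a zinc finger transcription factor gene, at −0.81. Among members detected on both arrays, as the Musashi transcripts were, the medians were 0.85 for the relatives, 0.90 for the partners, 0.77 for the other regulators and −0.36 for the targets, beside −0.047 for Msi1 and 0.64 for Msi2. No test of these differences was made, and the groups were chosen with earlier results of these arrays known. A share above that of all genes was not particular to these groups. Among detected cell type markers, 6 of 8 for enterocytes (median 1.53) and 4 of 9 for general epithelium exceeded IgG by 2-fold or more. For stem cells 1 of 9 did. The count was 0 of 5 for stroma and muscle, 0 of 3 for enteric neurons, 0 of 1 for enteric glia and 0 of 2 for immune cells. Of the enterocyte markers detected on both arrays, 4 of 5 were higher.

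**Figure D5:**
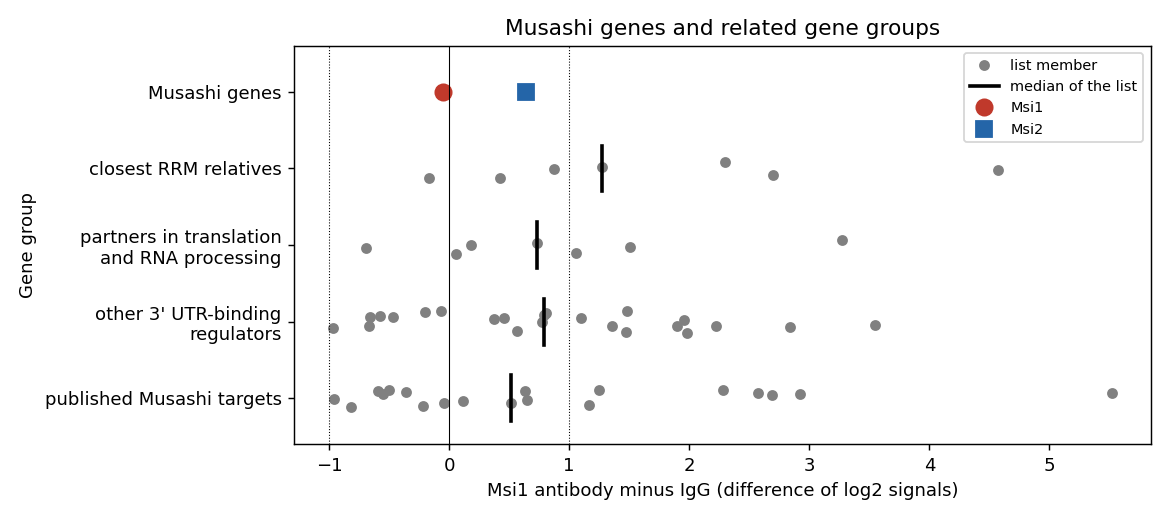
Difference of log2 signals between the Msi1 antibody and IgG for Msi1 (circle), Msi2 (square) and the detected members of 4 related gene groups (grey points), with each group's median as a bar and dotted lines at 2-fold. Msi1 lies at −0.047 and Msi2 at 0.64, and the group medians lie between 0.52 and 1.27, over members of which some were below the floor on IgG.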

How the data were processed

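The deposited values were 1 log2 signal per probe set and array, on Affymetrix Mouse Gene 1.0 ST arrays per the labels. The submitters' processing notes name affy without a version. The sources used here do not state the log base, taken as 2, or how background was corrected and arrays normalized. The unequal distributions show that the values were not quantile normalized at this level. Of 34760 probe sets, 21640 carried 1 symbol, 1321 several and 11799 none here. Symbols were brought up to date through RefSeq (GRCm38.p6) for the 21553 whose Entrez identifier it holds. A gene with several probe sets was represented by the one with the highest mean.

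Differences were taken between arrays for genes that exceeded the floor on either. Where the dimmer value lay below its floor, a fold is a lower bound against the floor. With 1 array per group no p-value was computed, and the number of arrays limits the precision. The alternatives tried were quantile normalization, median centring, loess centring (span 0.4), centring on receptor probe sets, values raised to the floor, other floors, detection on both arrays, and thresholds of 1.5-fold and 3-fold. Genes named are the members, the 2 highest and 2 lowest of each list, the 6 nearest patterns and the chromosomal neighbours. Pabpc1, Hnrnpd, Tardbp and the markers named on input (Lgr5, Olfm4, Tert, Snap25, Sox10) were chosen after their values were seen. The members and lists were chosen with earlier results of these data known. The 2-fold call, the pattern distance, and the median, quantile and loess scalings were tested on simulated data. The floor, the gene lists, receptor centring and the input windows were not. Python 3.11.15, pandas 2.3.3, numpy 2.4.6, statsmodels 0.14.6 and matplotlib 3.10.9 were used.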

Additional observations from a re-analysis of the deposited data

How the results depend on the processing

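Of 60 recomputed differences of the Musashi transcripts, 47 kept their direction and their side of 2-fold, and 13 did not. The 47 include every difference with values raised to the floor. That setting could not change them, because both genes were above the floor on every array. For Msi1, the difference between the Msi1 antibody and IgG (−0.047) was 0.087 with median centring and 0.30 with centring on receptor probe sets, and that between IgG and input (−4.02) was 0.20 with loess centring. For Msi2, the difference between the Msi1 antibody and input (0.40) was 1.13 after quantile normalization, 1.59 after loess centring and −0.22 after receptor centring. Between hnRNP and input (0.031) it was 1.06, 1.60 and −0.87 under these settings and −0.35 with median centring, and between IgG and input (−0.24) it was 0.75, 1.20 and −1.20 under the same 3. Both genes stayed above the floor on all 4 arrays with the floor at the 99th percentile and at the median of all probe sets. Neither gene had a second probe set to try. For the lists, detection on both arrays gave a median of 0.85 and 2 higher of 4 members for the relatives, 3 higher of 11 for the other regulators, and a median of −0.36 and 2 higher of 9 for the targets, beside 7.87% higher among the 4763 genes detected on both. The other list medians and counts, 27 of 32, kept their side.

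Over all genes, 1927 exceeded IgG by 2-fold or more with the Msi1 antibody and 716 were lower by as much. The higher count was 375 with detection on both arrays, 2973 at 1.5-fold and 1062 at 3-fold. The lower count was 1570 after quantile normalization, 330 with the floor at the 99th percentile, 1644 with no floor, 254 with detection on both arrays, 2039 at 1.5-fold and 116 at 3-fold. Of 80 recomputed counts in the other 5 comparisons, 44 moved by over 1.5 times. Genes lower with hnRNP than with IgG numbered 357 as deposited and 47 to 1123 otherwise, and genes higher with the Msi1 antibody than with hnRNP 1863 and 374 to 2832. Of the genes called, 72.9% were higher with the Msi1 antibody than with IgG. Median centring raised this share to 81.1% and loess centring to 79.0%, while quantile normalization lowered it to 59.7%. Against hnRNP the share was 69.2%, and 57.3% to 81.0% under 3 scalings. The windows of 0.25 and 1 around the input level kept 11 of 12 shares on the same side of 50%, the exception being Msi1 with hnRNP (45.0% as reported, 54.5% with the narrow window). No paired analysis was possible because each group had 1 array.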
